A study of Drosophila melanogaster with 4 samples.

Results

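The genes described here encode proteins of the fusome and of ring canals, the structures that join sister germ cells in the *Drosophila* ovary. They were chosen by FlyBase gene symbol and number 9 of the 17023 genes counted in each library: *hts*, *alpha-Spec*, *beta-Spec*, *shot*, *par-1*, *kel*, *cher*, *pav* and *Src64B*. All 9 were counted in every library and all 9 received an adjusted p in the test.

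The fusome is a germline organelle of membrane vesicles laid on a skeleton of spectrin and adducin. It starts as the round spectrosome of germline stem cells and cystoblasts and branches through the cell bridges as a cyst divides. Each cyst division stops before the cells separate, and the arrested cleavage furrow becomes a ring canal, which is lined with filamentous actin and later lets nurse cell cytoplasm pass into the oocyte. Most of these proteins also work outside the germline: spectrins, the filamin Cheerio, the spectraplakin Short stop and the kinase Par-1 are used by many cell types, so that their mRNAs in whole ovaries can come from several cell types.

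Poly(A) RNA was sequenced from ovaries with germline RNAi against *aramis* and from ovaries with germline RNAi against *bam*, the developmental control of the series, with 2 libraries (n = 2) in each group. Flies of both groups carried *UAS-Dicer2*, which strengthens RNAi, and the *NosGAL4* driver, which is active in germ cells and leaves the somatic cells of the ovary untargeted. Flies were dissected between 1 and 3 days after eclosion. *bam* promotes differentiation of the cystoblast, and in ovaries without its function undifferentiated germ cells accumulate that hold spectrosomes rather than branched fusomes. Libraries had between 12977013 and 16754980 counts.

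Markers of several cell types differed in level between the groups. Of 20 germline markers found in the annotation, 14 had lower counts in *aramis* RNAi by the test used below and none was higher. Their summed level was between 1479 and 1698 CPM (counts scaled to a common library total) in *aramis* RNAi and between 4158 and 5785 in *bam* RNAi, and none of the 20 was at 0 in any library. Muscle markers summed to between 45642 and 47063 CPM in *aramis* RNAi and between 18303 and 23399 in *bam* RNAi, with 6 of 13 higher, and 5 of 6 hemocyte markers were higher as well. *Act57B* weighed most in the muscle sum: *aramis* RNAi libraries held 509118 and 426645 normalised counts of it, *bam* RNAi libraries 109009 and 151801. Both *aramis* RNAi libraries exceeded both *bam* RNAi libraries for 8 of the 13 muscle markers, so that the sum does not stand for each of them. Of 16 markers of somatic ovary cells, 2 were lower and none higher. At an unadjusted DESeq2 p under 0.05, 2 of these were lower and 2 higher. Of 11 eggshell and yolk genes 6 were lower. The background for all these counts was 7.79% of genes called lower and 9.85% called higher. In whole ovaries fewer cells of a type cannot be told apart from less RNA per cell. Of the targeted genes, *ais* (the annotation's name for *aramis*) had 117 and 153 normalised counts in *aramis* RNAi, against 910 and 323 in *bam* RNAi, whereas *bam* did not separate the groups (50.3 and 72.7 against 60.0 and 70.4). No library without RNAi was analysed here, so that the depletion of *bam* was not checked.

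To determine which of the 9 genes differed between the groups, all genes with at least 10 counts over the 4 libraries were tested with DESeq2, with an adjusted p under 0.05 as the threshold for a call. *pav*, which encodes a kinesin of the division machinery, was the member that passed, and it was lower in *aramis* RNAi. Against this 1 of 9, 7.79% of the 10049 genes with an adjusted p were called lower. None of the 9 was called higher, against 9.85% of all genes. None was higher at an unadjusted p under 0.05 in DESeq2 either, nor was any called higher by edgeR, the other tool used. The median log2 fold change of *aramis* RNAi over *bam* RNAi was 0.11 over the 9 genes and -0.09 over all 11128 tested genes. Normalised counts are counts divided by the size factor of the library. On that scale both *aramis* RNAi libraries lay below both *bam* RNAi libraries for *kel*, *pav* and *Src64B*, a pattern found in 30.3% of tested genes, and above them for *shot*, a pattern found in 27.4%.

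**Figure D1:**
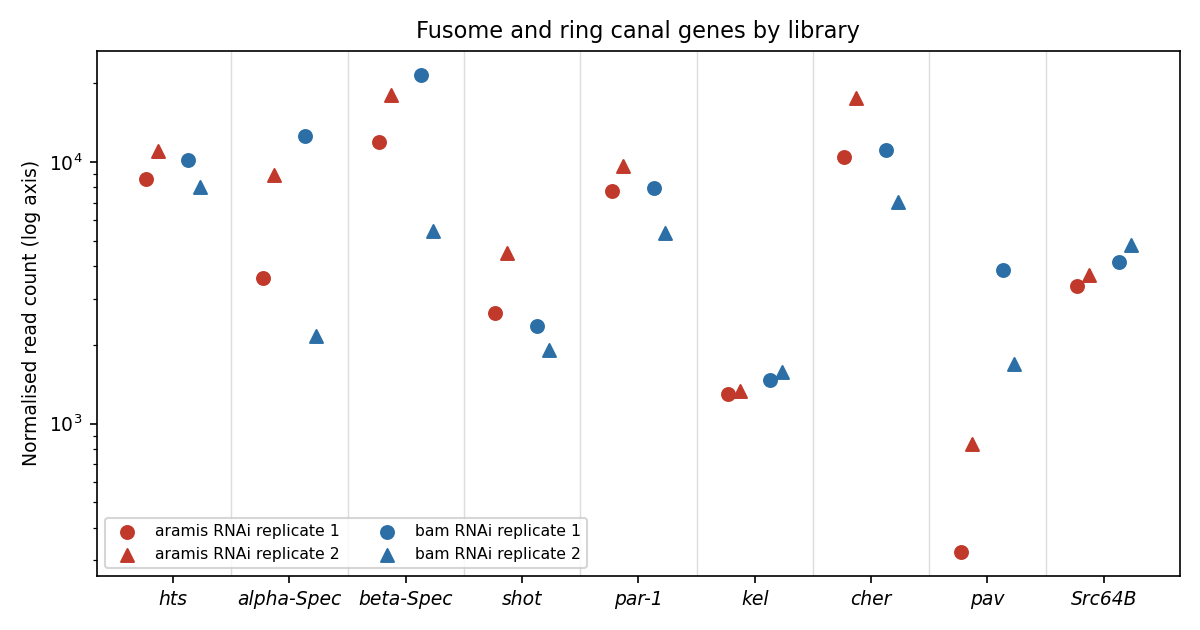
Normalised read counts of the 9 genes in the 2 *aramis* RNAi libraries (red) and the 2 *bam* RNAi libraries (blue), on a log axis, with a point per library. The groups are farthest apart for *pav*, at 323 and 832 in *aramis* RNAi against 3883 and 1697 in *bam* RNAi. The *bam* RNAi replicates are farthest apart for *alpha-Spec*, at 12579 and 2167.

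The membrane skeleton of the fusome was examined first. *hts* encodes the adducin-like protein of the fusome, and a product of its ovarian transcripts coats ring canals. The gene (FBgn0263391; chromosome 2R, 19397032 to 19424903, minus strand, dm6) has 16 annotated transcripts, which counts per gene do not separate, and 13.6% of its exon bases lie opposite an antisense RNA. It had 8610 and 11037 normalised counts in *aramis* RNAi, against 10194 and 8018 in *bam* RNAi. The values of the groups overlapped. On the log2 scale the change was 0.11 (DESeq2 adjusted p = 0.883, SE 0.41), with a 95% interval from -0.69 to 0.91. Thus, with the scaling of the main test, a change of *hts* beyond about 1 unit on the log2 scale in either direction lies outside the interval. The sign turned to -0.064 without *aramis* RNAi replicate 2, to -0.063 without *bam* RNAi replicate 2 and to -0.24 with total-count scaling. The interval does not hold for size factors from the germline markers, described below. These put *hts* at 1.91 (DESeq2 adjusted p = 0.000217) and the median gene at 1.76.

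Spectrin is a tetramer of alpha and beta chains that cross-links actin under membranes and in the fusome. *alpha-Spec* (FBgn0250789; chromosome 3L, 1778485 to 1795328, minus strand) had 3600 and 8957 normalised counts in *aramis* RNAi, against 12579 and 2167 in *bam* RNAi. The *bam* RNAi libraries were thus both the highest and the lowest of the 4, with a 5.80-fold difference between replicates. *beta-Spec* (FBgn0250788; chromosome X, 17657372 to 17669371, plus strand) had 11987 and 18107 in *aramis* RNAi, against 21603 and 5458 in *bam* RNAi, and followed the same order of libraries. Here the *bam* RNAi replicates differed 3.96-fold. Neither gene was called, with log2 fold changes of -0.23 (DESeq2 adjusted p = 0.848, SE 0.66) for *alpha-Spec* and 0.15 (DESeq2 adjusted p = 0.883, SE 0.57) for *beta-Spec*. Their 95% intervals, from -1.53 to 1.06 and from -0.96 to 1.27, were the widest of the 8 genes that were not called. Without *bam* RNAi replicate 1 the log2 fold changes became 1.53 and 1.47, and without *bam* RNAi replicate 2 they were -1.01 and -0.53. Each of these fits leaves 1 library in the *bam* RNAi group, so that the direction was set by the library that was kept. Without *aramis* RNAi replicate 1 *alpha-Spec* turned to 0.31, and without *aramis* RNAi replicate 2 *beta-Spec* turned to -0.16.

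Replicates of the same group therefore differed more in the spectrin genes than the groups did. The *bam* RNAi replicates were over 2-fold apart for 3 of the 9 genes, against 25.3% of the 7883 genes whose mean count reached 50. Of these genes 14.7% were over 2-fold higher in replicate 1, and 2.28% over 4-fold. Among the 9 genes, *alpha-Spec*, *beta-Spec* and *pav* passed the 2-fold limit, all higher in replicate 1, and *alpha-Spec* the 4-fold limit. In *aramis* RNAi, replicates over 2-fold apart made up 6.03% of genes, and *alpha-Spec* and *pav* were among them, both of them lower in replicate 1.

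These differences ran with transcript length over all genes, and the 9 genes are long. With genes cut into 5 length classes of equal size, 8 of the 9 fell in the longest, from 4786 nt for *Src64B* to 27842 nt for *shot*. *pav*, at 3207 nt, fell in the next. The longest class had a median log2 ratio between replicates (1 over 2) of 0.47 for *bam* RNAi and -0.40 for *aramis* RNAi, and the shortest class of -0.31 and 0.32. All 9 genes were lower in replicate 1 of *aramis* RNAi and 7 of 9 were higher in replicate 1 of *bam* RNAi. The log2 ratio of *alpha-Spec* between the *bam* RNAi replicates, 2.54, nevertheless exceeded that of 99.8% of the genes in its length class, and the ratio of *beta-Spec*, 1.98, that of 98.2%. With the trend on length removed from each library, *bam* RNAi replicate 1 remained above replicate 2 by 3.84-fold in *alpha-Spec* and by 2.64-fold in *beta-Spec*. For *hts*, in the same length class, the same ratio was 0.899.

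**Figure D2:**
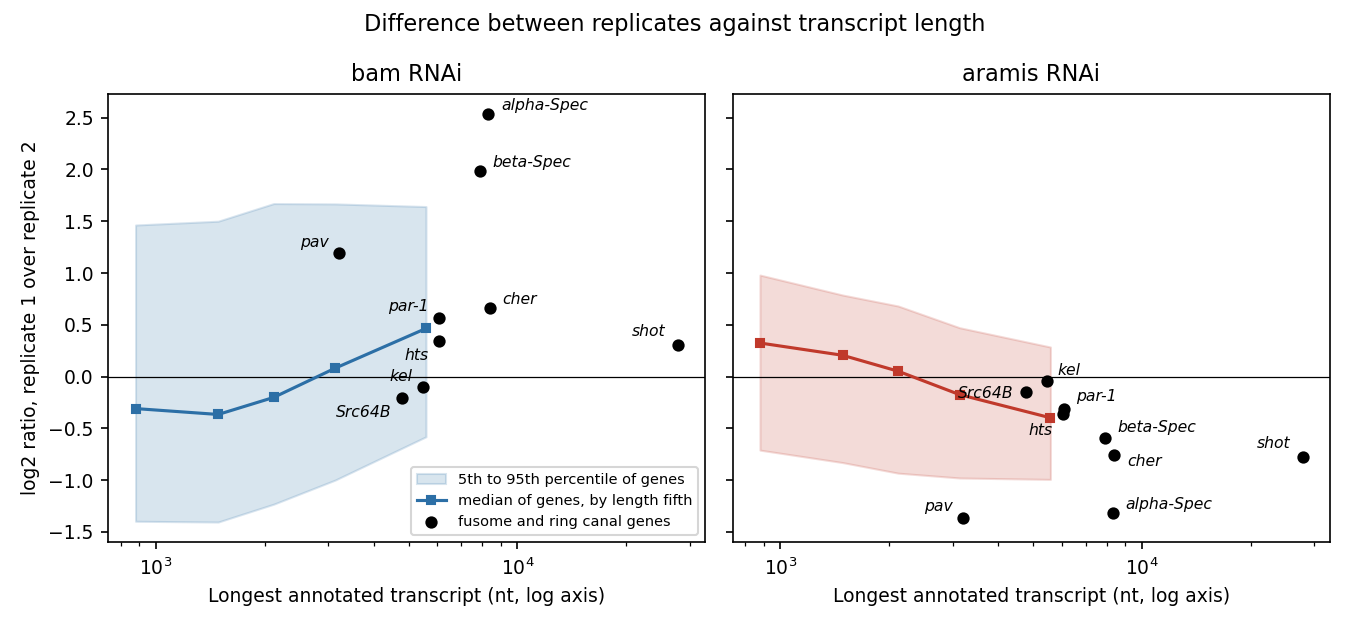
Log2 ratio of normalised counts in replicate 1 over replicate 2 against the length of the longest annotated transcript (log axis), for *bam* RNAi (left) and *aramis* RNAi (right). Squares are medians of genes in each of the 5 length classes, the shaded band runs from the 5th to the 95th percentile, and the 9 genes are black points; *alpha-Spec* at 2.54 and *beta-Spec* at 1.98 lie above the band in *bam* RNAi.

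The ratio of the spectrin chains needs no scaling between libraries, since both genes are counted in the same library. Per kilobase of transcript, counts of *alpha-Spec* over *beta-Spec* were 0.285 and 0.470 in *aramis* RNAi, against 0.553 and 0.377 in *bam* RNAi, so that the alpha mRNA was the less abundant in all 4 libraries. In *aramis* RNAi the log2 ratio averaged -1.45 ± 0.51 (SD, n = 2), and in *bam* RNAi -1.13 ± 0.39 (SD, n = 2). The difference of -0.32 was smaller than the spread between replicates (exact two-sided permutation test, p = 0.667). A design of 2 against 2 cannot give a p below 0.333. A change in the ratio of the chains was therefore not detectable here, whereas the level of both chains moved together between replicates.

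Next, the genes that connect the fusome to microtubules and to cyst polarity were examined. *shot* encodes a very large spectraplakin that binds both actin and microtubules and sits on the fusome. The gene (FBgn0013733; chromosome 2R, 13864237 to 13942110, minus strand) had 2642 and 4510 normalised counts in *aramis* RNAi, against 2360 and 1906 in *bam* RNAi. Although the groups did not overlap, the difference of their means was smaller than that between the *aramis* RNAi replicates. Its log2 change was 0.75 (DESeq2 adjusted p = 0.244, SE 0.44, 95% interval from -0.12 to 1.61), the largest positive value of the 9. With the trend on transcript length removed it was 0.31 (DESeq2 adjusted p = 0.606), where the corrected values were 2896 and 3190 in *aramis* RNAi, against 2069 and 2829 in *bam* RNAi.

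*par-1* encodes a serine/threonine kinase that is found on the fusome and is needed to maintain the oocyte. The gene (FBgn0260934; chromosome 2R, 19456170 to 19485686, plus strand) shares 6.35% of its exon bases with *mei-W68* on the same strand, which leaves that part of its counts uncertain. It had 7768 and 9668 normalised counts in *aramis* RNAi, against 7929 and 5345 in *bam* RNAi. The groups overlapped. The estimated log2 change was 0.39 (DESeq2 adjusted p = 0.564, SE 0.42, 95% interval from -0.43 to 1.22).

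Of the ring canal genes, *kel* and *Src64B* were the most even. *kel* encodes a Kelch-repeat protein that serves as substrate adaptor of a Cullin-3 ubiquitin ligase and keeps ring canal actin in order. Its 2 annotated transcripts (FBgn0001301; chromosome 2L, 18129884 to 18138083, minus strand) have the same length of 5476 nt and differ in their product, of 689 or 1477 amino acids, because the stop codon of the shorter reading frame can be read through. Counts of mRNA do not tell these products apart. *kel* had 1295 and 1337 normalised counts in *aramis* RNAi, against 1464 and 1573 in *bam* RNAi. Replicates differed by 1.03-fold and 1.07-fold, less than in any other of the 9 genes, and the values of *aramis* RNAi lay just below those of *bam* RNAi. With the trend on length removed, the groups overlapped, at 1502 and 1201 against 1228 and 1815. The fitted log2 change was -0.21 (DESeq2 adjusted p = 0.774, SE 0.41, 95% interval from -1.001 to 0.59).

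*Src64B* encodes a Src family tyrosine kinase that is required for ring canals to grow. The gene (FBgn0262733; chromosome 3L, 4592447 to 4626196, minus strand) had 3347 and 3713 normalised counts in *aramis* RNAi, against 4160 and 4809 in *bam* RNAi. The groups did not overlap, but with the trend on length removed they did, at 3864 and 3402 against 3531 and 5404. On the log2 scale the change was -0.35 (DESeq2 adjusted p = 0.596, SE 0.40, 95% interval from -1.13 to 0.44). *cher* encodes filamin, which cross-links actin and recruits it to ring canals. The gene (FBgn0014141; chromosome 3R, 17091533 to 17125389, minus strand) overlaps *cal1* on the other strand over 4.31% of its exon bases. It had 10443 and 17658 normalised counts in *aramis* RNAi, against 11112 and 7014 in *bam* RNAi, with *aramis* RNAi replicate 2 above the other 3 libraries. Its log2 change was 0.63 (DESeq2 adjusted p = 0.357, SE 0.45, 95% interval from -0.25 to 1.52). Without *bam* RNAi replicates 1 and 2 it was 1.00 and 0.33.

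*pav* (*pavarotti*) encodes a kinesin-6 motor that, with the GTPase-activating protein encoded by *tum*, forms the centralspindlin complex of the cleavage furrow, and it remains on ring canals. The gene (FBgn0011692; chromosome 3L, 4242734 to 4246233, plus strand) has 1 annotated transcript of 6 exons and overlaps no other gene. It had 323 and 832 normalised counts in *aramis* RNAi, against 3883 and 1697 in *bam* RNAi. Every *aramis* RNAi value was below every *bam* RNAi value, although replicates differed by 2.57-fold and 2.29-fold. The means were 578 ± 360 (SD, n = 2) and 2790 ± 1546 (SD, n = 2). *pav* fell by 2.27 on the log2 scale (SE 0.55, DESeq2 adjusted p = 0.000946), a 4.83-fold lower level that also passed the 4-fold limit of the study's methods, which 3.60% of genes passed in this direction and 3.31% in the other. edgeR gave -2.28 (edgeR adjusted p = 0.0179), where 4.74% of genes were called lower. The log2 fold change was -1.72 and -3.09 without *aramis* RNAi replicates 1 and 2, and -1.55 and -2.76 without *bam* RNAi replicates 1 and 2. The call was lost without *aramis* RNAi replicate 1, but such a fit leaves 1 library in a group, which alone can lose calls.

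Since *pav* acts in cell division, a list of 17 other cytokinesis genes was examined. In DESeq2, 8 of the 17 were lower in *aramis* RNAi and none was higher (1 was higher at an unadjusted p under 0.05, and edgeR called none). The background was 7.79% lower. The median log2 fold change of the list was -1.18, against -0.09 for all tested genes. *borr* (FBgn0032105; chromosome 2L, 9251472 to 9253118), which encodes the Borealin subunit of the chromosomal passenger complex, had 175 and 201 normalised counts in *aramis* RNAi, against 1264 and 437 in *bam* RNAi. Its log2 fold change was -2.18 (DESeq2 adjusted p = 0.00146, SE 0.55).

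The kinase of the same complex, *aurB* (FBgn0024227; chromosome 2L, 10856797 to 10858094), fell by 1.73 on the log2 scale (DESeq2 adjusted p = 0.00347), and its scaffold *Incenp* (FBgn0260991; chromosome 2R, 7278467 to 7281795) fell by 1.87 (DESeq2 adjusted p = 0.0113). *feo* (FBgn0030241; chromosome X, 10852446 to 10854869) encodes a protein that bundles antiparallel microtubules of the central spindle. It had 416 and 914 normalised counts in *aramis* RNAi, against 3530 and 1437 in *bam* RNAi, the same order of libraries as *pav*. Its log2 fold change was -1.90 (DESeq2 adjusted p = 0.00612, SE 0.54). *polo* (FBgn0003124; chromosome 3L, 20309654 to 20313466), which encodes a mitotic kinase, fell by 1.403 (DESeq2 adjusted p = 0.00986). The other 3 that fell were *Klp3A*, *Septin5* and *sti*. The remaining 9 did not pass and lay on both sides of 0. *Septin4* at -1.19 (DESeq2 adjusted p = 0.0510), *pnut* at -0.81 and *Rok* at -0.31 were negative, and *Rho1* at 0.90 (DESeq2 adjusted p = 0.0936), *dia* at 0.80, *Septin1* at 0.67, *pbl* at 0.50, *fwd* at 0.17 and *Septin2* at 0.0087 were positive. Leaving out a library keeps 1 in a group, which alone can change the number of calls. The median of the cytokinesis list stayed negative in these fits. It was -1.002 and -1.28 without *aramis* RNAi replicates 1 and 2, and -0.68 and -1.26 without *bam* RNAi replicates 1 and 2.

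**Figure D3:**
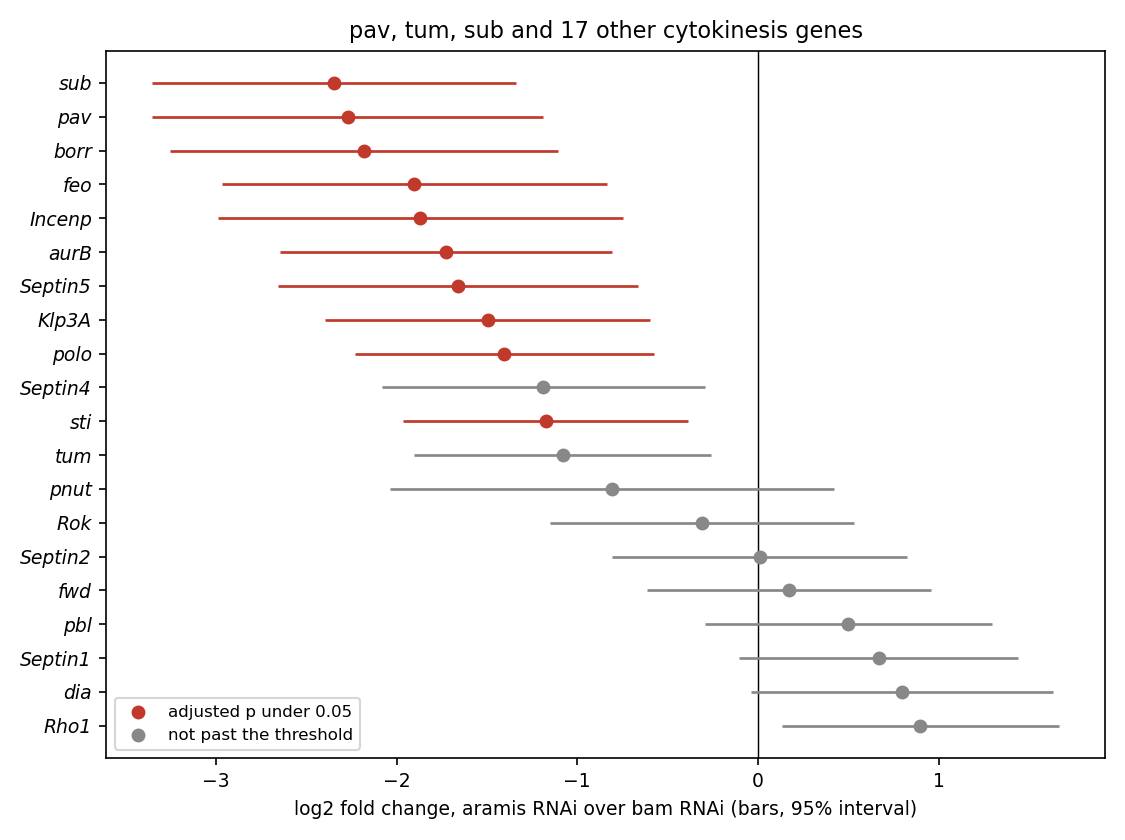
Log2 fold changes of *aramis* RNAi over *bam* RNAi for *pav*, its partner *tum*, its relative *sub* and the 17 cytokinesis genes, with 95% intervals as bars. Genes past an adjusted p of 0.05 (red) all lie on the negative side, from *sub* at -2.34 to *sti* at -1.18.

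*tum*, the partner of *pav*, had 571 and 700 normalised counts in *aramis* RNAi, against 1354 and 1335 in *bam* RNAi. Its log2 fold change of -1.08 (SE 0.42) did not pass the threshold (DESeq2 adjusted p = 0.0532). Within libraries and per kilobase of transcript, *pav* over *tum* was 0.416 and 0.873 in *aramis* RNAi, against 2.104 and 0.932 in *bam* RNAi, so that *aramis* RNAi replicate 2 and *bam* RNAi replicate 2 were nearly equal. The difference of the mean log2 ratio was -1.22 (exact two-sided permutation test, p = 0.333, the smallest this design allows). This ratio was chosen after the values of *pav* and *tum* were seen.

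Genes of the same protein families served as a further comparison. *sub* (FBgn0003545; chromosome 2R, 17745500 to 17748078), which encodes the other kinesin-6 of the fly and acts on the meiotic spindle, had 112 and 85.5 normalised counts in *aramis* RNAi, against 640 and 363 in *bam* RNAi. It fell by 2.34 on the log2 scale (SE 0.51, DESeq2 adjusted p = 0.000208). Of 20.6% of its exon bases the other strand belongs to *Ir54a*. *Ank2* (FBgn0261788; chromosome 3L, 7655389 to 7718395), an ankyrin gene, had a log2 change of 1.43 (DESeq2 adjusted p = 0.0481) from low counts of 73.7 and 119 in *bam* RNAi. The call was lost with edgeR (edgeR adjusted p = 0.0734), TMM scaling, total-count scaling, no independent filtering and the length correction, and on leaving out any library but *bam* RNAi replicate 2. It shares 12.5% of its exon bases with *CG44195*. The other 6 tested relatives did not pass. These were the second beta-spectrin gene *kst* at 0.02, the filamin gene *jbug* at 0.28, the Src gene *Src42A* at -0.08, the Kelch-repeat genes *dbo* at 0.84 and *Keap1* at -0.71, and the alpha-actinin gene *Actn* at 0.01. *KP78a* and *KP78b*, relatives of *par-1*, had 0 counts in every library and were not tested. Of their exon bases 100% overlap each other on the same strand, so that counts per gene leave their level uncertain.

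To place the 9 genes among others that act on the same structures, lists of further fusome and ring canal genes were counted. Of 18 fusome genes tested, 2 were lower and none higher, where 7.79% of all genes were lower and 9.85% higher (1 was higher at an unadjusted p under 0.05, and edgeR called none). *CycA* (FBgn0000404; chromosome 3L, 11826719 to 11833578), a mitotic cyclin that associates with the fusome, had 969 and 1122 normalised counts in *aramis* RNAi, against 2674 and 2767 in *bam* RNAi, a log2 change of -1.38 (DESeq2 adjusted p = 0.00771, SE 0.40). *mud* (FBgn0002873; chromosome X, 14247732 to 14258595), which encodes a spindle-orienting protein, fell by 1.29 (DESeq2 adjusted p = 0.0333), but it was not called by edgeR (edgeR adjusted p = 0.0734) and 98.6% of its exon bases lie opposite an antisense RNA. *orb*, which encodes an RNA-binding protein of the oocyte, was at the threshold with -1.13 (DESeq2 adjusted p = 0.0505). The median of the list was -0.16. *Dhc64C*, which encodes a chain of the microtubule motor dynein, was at 0.24, and *Lis-1*, which encodes a regulator of dynein, was at 0.32. Neither *CycA* nor *mud* was called when either *aramis* RNAi library was left out. Such a fit leaves 1 library in a group, which alone can lose calls. The median of the list was 0.02 and -0.30 without *aramis* RNAi replicates 1 and 2. It was 0.07 and -0.21 without *bam* RNAi replicates 1 and 2. *tmod* was at 1.34 without *bam* RNAi replicate 1, and *Ank* at 1.31 without *bam* RNAi replicate 2.

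Of 18 ring canal and actin genes tested, 1 was lower and 1 higher, against the same 7.79% and 9.85% of all genes. *qua* (FBgn0003187; chromosome 2L, 17486806 to 17497208) encodes a villin-like protein that bundles actin in nurse cells. It had 179 and 166 normalised counts in *aramis* RNAi, against 863 and 947 in *bam* RNAi, so that the groups were far apart against the spread between replicates. The estimated log2 change was -2.39 (DESeq2 adjusted p = 4.44e-06, SE 0.44). *capu* (FBgn0000256; chromosome 2L, 3872646 to 3902860), which encodes a formin that nucleates actin, had 1434 and 1809 against 783 and 739, a log2 change of 1.09 (DESeq2 adjusted p = 0.0497, SE 0.42). It was not called by edgeR (edgeR adjusted p = 0.118), nor with TMM or total-count scaling. Nor was it called with no count filter, at least 10 counts in every library, no independent filtering or the replicate block. *Cul3*, which encodes the cullin scaffold that the product of *kel* binds, was at -0.997 (DESeq2 adjusted p = 0.136), and the anillin gene *scra* at -1.34 (DESeq2 adjusted p = 0.139, SE 0.65), with 544 and 1841 against 4852 and 1190. The actin-nucleating genes *Arp2*, *Arp3* and *Arpc1* lay at 0.47, 0.66 and 0.41. The median of the list was 0.37. Fits without a library leave 1 in a group, which alone can change the calls. In them the median of the list was 0.38 and 0.27 without *aramis* RNAi replicates 1 and 2. It was 0.30 and 0.03 without *bam* RNAi replicates 1 and 2. Without either *aramis* RNAi library *capu* was no longer called.

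Because the germline markers differed between the groups, the same fit was repeated with size factors taken from those 20 markers. This moved the median of all tested genes from -0.09 to 1.76 on the log2 scale, so that 59.0% of genes were called higher and 0.458% lower. On this scale *pav* was at -0.53 (DESeq2 adjusted p = 0.472), and *borr*, *feo*, *Incenp* and *sub* stayed negative at values between -0.57 and -0.16, while the other 5 cytokinesis genes called in the first fit turned positive, with *aurB* at 0.10, *Septin5* at 0.15, *Klp3A* at 0.29, *polo* at 0.48 and *sti* at 0.64. None of these was called. The median of the 17 cytokinesis genes was then 0.64, with 7 called higher and none lower. Thus *pav* was not called relative to the germline markers, whose median log2 fold change in the first fit was -2.05. With an SE of 0.63 this does not show that *pav* changed by the same amount. Scaled on the markers, *pav* had 626 and 1569 normalised counts in *aramis* RNAi, against 2406 and 769 in *bam* RNAi. These values overlapped between the groups. The other 8 genes all had positive values relative to the germline markers, from 1.44 for *alpha-Spec* to 2.55 for *shot*, and 7 of them were called higher, *alpha-Spec* being the exception (DESeq2 adjusted p = 0.0785). Relative to the median gene of the same fit, these values ran from 0.31 below to 0.79 above.

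**Figure D4:**
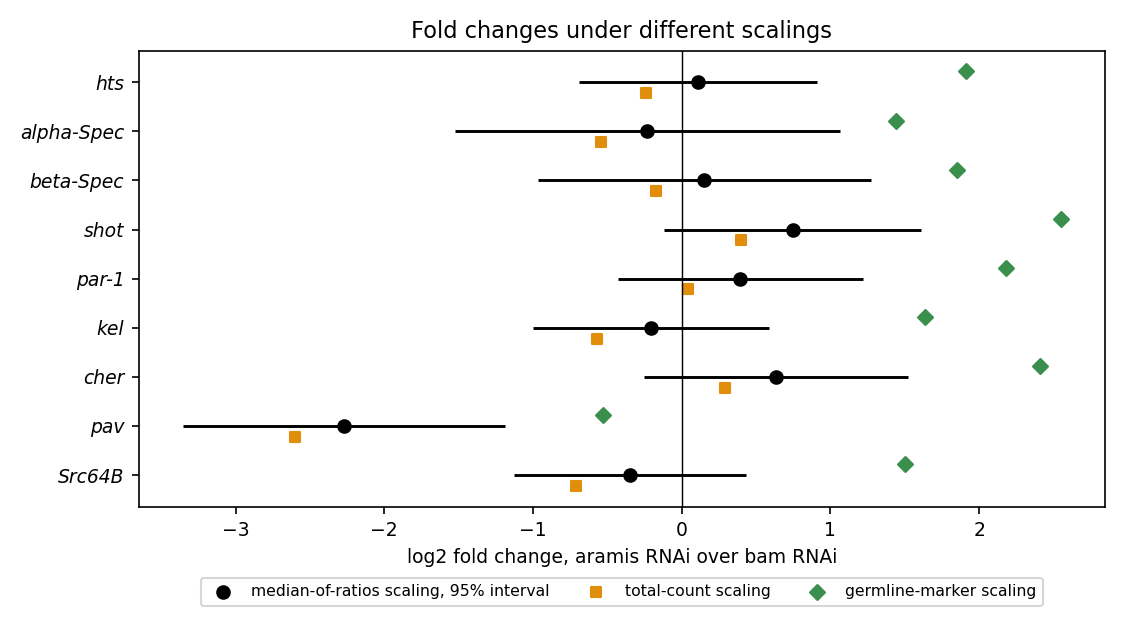
Log2 fold changes of the 9 genes with median-of-ratios scaling (black, bars are 95% intervals), total-count scaling (orange squares) and germline-marker scaling (green diamonds). With germline-marker scaling 8 genes lie between 1.44 and 2.55 and *pav* at -0.53, and with total-count scaling *pav* lies at -2.60.

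*kel* differed from *pav* within the ring canal set. It stayed within 0.21 of equal on the log2 scale when the germline markers were at -2.05, and relative to them it was 1.63 higher (DESeq2 adjusted p = 0.000951). This was close to the median of all tested genes on that scale, 1.76. With total-count scaling *kel* was at -0.57. Counts of *pav* over *kel*, per kilobase and within each library, were 0.427 and 1.06 in *aramis* RNAi, against 4.53 and 1.84 in *bam* RNAi. *pav* was thus below *kel* in *aramis* RNAi replicate 1 alone, and close to it in *aramis* RNAi replicate 2. The difference of the mean log2 ratio was -2.10 (exact two-sided permutation test, p = 0.333, the smallest this design allows). This ratio was not planned. The part that muscle, hemocytes and other somatic cells had in the values of the other 8 genes was not tested.

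Levels were compared between genes per length, as TPM, counts per kilobase of the longest annotated transcript scaled to a common sum in each library. In *bam* RNAi *beta-Spec* was highest at 281 ± 244 TPM (SD, n = 2). It was followed by *hts* at 244 ± 49.9, *par-1* at 177 ± 55.0, *cher* at 175 ± 62.2, *Src64B* at 151 ± 9.97, *alpha-Spec* at 146 ± 148 and *pav* at 142 ± 83.0 TPM. Each of these 7 overlapped its neighbours in the order. *kel* at 44.7 ± 0.643 TPM and *shot* at 12.4 ± 2.31 TPM stood below them, although 1 value of *alpha-Spec*, 41.0 TPM, was below *kel*. In *aramis* RNAi *beta-Spec* at 221 ± 90.1, *cher* at 195 ± 93.6, *hts* at 187 ± 55.9 and *par-1* at 165 ± 46.0 TPM led and overlapped each other. *alpha-Spec* at 89.4 ± 62.9 and *Src64B* at 84.5 ± 16.9 TPM came next, followed by *kel* at 27.4 ± 4.10, *pav* at 21.4 ± 15.4 and *shot* at 15.0 ± 7.27 TPM, where *pav* overlapped both of its neighbours.

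By rank among all genes, *hts* and *kel* kept a similar place in both groups. *hts* lay between the 91.1 and the 94.9 percentile of tested genes by TPM in every library and *kel* between the 61.1 and the 64.9. *pav* lay at the 92.2 and the 79.7 percentile in *bam* RNAi and at the 44.2 and the 62.8 in *aramis* RNAi. *shot* was between the 36.7 and the 51.6 percentile, a level that depends on the transcript taken, since its annotated transcripts run from 13661 to 27842 nt.

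Lastly, the profile of each gene over the 4 libraries was compared with those of the 61 tested genes in the fusome, ring canal, cytokinesis and family lists, by the root-mean-square distance of log2 values centred on the mean of each gene. *feo* was nearest to *pav*, at 0.24, and no other listed gene was within 0.25 of it. *chic*, the profilin gene, was nearest to *beta-Spec* at 0.18, and no gene came within 0.25 of *alpha-Spec*. *hts* was nearest to *Septin2* at 0.06, *par-1* to *Cortactin* at 0.06, *kel* to *Btk* at 0.07, *shot* to *dia* at 0.08, *cher* to *Mbs* at 0.09 and *Src64B* to *aPKC* at 0.11. With 4 libraries such distances are a description of these samples.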

How the data were processed

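The authors deposited 1 table per library, holding unnormalised read counts by gene. The submitters' processing notes name HISAT2 2.1.0, featureCounts 1.4.6 and DESeq2 1.24.0 and the dm6 build, without giving roles. Whether counting used strand is not given in the sources used here, so overlapping genes may share reads. RNA was fragmented for 13 minutes for a directional poly(A) kit.

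Ensembl release 115 (dm6) gave symbols, positions and transcript lengths and matched 16647 of 17023 identifiers. The other 376 held between 5.52% and 6.66% of counts. Listed genes whose symbol matched no counted identifier were left out.

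DESeq2 1.42.0 (Wald test, group as the sole term, at least 10 counts over the 4 libraries, Benjamini-Hochberg adjustment) was the main test. The study's methods name DESeq2 with an FDR under 0.05 and over 4-fold change. Calls here use the adjusted p alone, and the filter was chosen here. Code was tested on simulated data. Intervals are 95% Wald intervals. Alternatives were edgeR 4.0.16, other scalings and filters, a length correction, a replicate block and leaving out each library. Labels do not say whether replicates were separate cultures or animals, so p-values measure the spread between these libraries.

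The 9 genes and the lists were chosen with earlier results of these data known. Named beyond the 9 were the targeted genes, listed genes that passed (the 5 with the smallest adjusted p where more did) and the nearest profile for each gene. Other listed genes, named after their values were seen, include the other cytokinesis genes.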

Additional observations from a re-analysis of the deposited data

How the results depend on the processing

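With germline-marker scaling the count of the 9 genes called lower went from 1 to 0 and that called higher from 0 to 7. Of the 61 other listed genes tested, 0 were called lower, in place of 12, and 42 higher, in place of 2. Over all genes this scaling called 0.458% lower and 59.0% higher. *alpha-Spec*, *kel* and *Src64B* then reversed to 1.44, 1.63 and 1.502. With total-count scaling *hts* reversed to -0.24 and *beta-Spec* to -0.17. Leaving out each library in turn, between 0 and 1 of the 9 genes were lower and between 0 and 2 higher, and between 2 and 17 of the other listed genes were lower and between 0 and 8 higher. Over these fits *hts* ran from -0.064 to 0.30, *alpha-Spec* from -1.02 to 1.53 and *beta-Spec* from -0.53 to 1.47. The 2 higher listed genes were 0 with edgeR, TMM scaling, total-count scaling or no independent filtering and 1 with no count filter, with at least 10 counts in every library or with the length correction. Deviations of same-numbered libraries had a correlation of -0.55 over 7883 genes, and the replicate numbers were not taken as pairs. With the replicate block *pav* was at -2.30 and still called, *alpha-Spec* reversed to 0.12, and 4 other listed genes were lower and 0 higher. With the replicate block and the length correction together, 7 were lower and 0 higher, against 371 and 624 over all genes. *alpha-Spec* was then at 0.078. With the pairing crossed, chosen after seeing the data, 1 of the 9 genes was lower and 0 higher, and *alpha-Spec* was at 0.12. In that fit 18 other listed genes were lower and 11 higher, against 1372 and 1596 over all genes. The alpha to beta spectrin difference was -0.96 and 0.32 within same-numbered pairs of the replicate block. The cause of these shifts was not tested. Over all genes, 783 were lower and 990 higher, against 1619 and 542 with total-count scaling, 528 and 639 with edgeR, 277 and 438 with the block and, without a library, from 103 to 1180 lower and from 85 to 1400 higher. *pav* kept its direction in all 15 alternatives and its call in 13. With 2 libraries a group, intervals of the other genes reach about 1 unit or more on the log2 scale, which limits what can be called.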

Other observations

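Among listed genes outside the 9, those with *bam* RNAi replicate 1 over 4-fold above replicate 2 came from several lists. There were 9 of them, taken without a limit on the mean count, and for *en* the mean was below 50. Of all genes with a mean count of at least 50, 2.28% passed the same fold limit. The matching share of the listed genes was not computed, so that these numbers do not show an excess. *Actn* had 11897 normalised counts in replicate 1 and 2112 in replicate 2, *pnut* 3901 and 840, and *scra* 4852 and 1190. The muscle genes were *Tm2* at 36028 and 3737, *up* at 54466 and 7222 and *TpnC73F* at 6992 and 1685, the hemocyte gene was *Pxn* at 42330.1 and 10284, and the somatic genes were *Wnt4* at 2419 and 448 and *en* at 21.0 and 2.58. Other genes of the same lists went the other way, as *Arp3* with 1689 and 3160, *sqh* with 2078 and 3399 and *Act57B* with 109009 and 151801. The *aramis* RNAi replicates had 27853 and 30583 for *Tm2*. These genes were chosen after their values were seen.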
